A study of Mus musculus with 12 samples.

Results

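Transcripts of 9 secreted cytokines or subunits that signal through related receptors, JAKs and STATs were followed in mouse macrophages labelled Dicer knockout or control. They were Il6, Osm (oncostatin M) and Lif (leukaemia inhibitory factor) of the IL-6 family, the IL-12 family subunits Il12a, Il12b, Il23a, Il27 and Ebi3, and Il10. The 9 genes were chosen by symbol, from the Ensembl identifiers in the count files, and are 9 of the 46078 gene identifiers measured. In all, 8 of the 9 passed the filter on low counts and were tested. Lif, with 0 to 3 reads in every library, did not pass.

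The cells were bone marrow-derived macrophages of male C57BL/6 mice, grown for 7 days in medium with 30% supernatant of L929 cells, a source of macrophage growth factor. All groups came from ApoE-/- mice. The controls are titled LysMcre/+;Dicer+/+;ApoE-/- and the knockouts, called Dicer KO here, LysMcre/+;Dicerfl/fl;ApoE-/-. In the knockouts, Cre driven from the LysM (Lyz2) locus of myeloid cells is meant to remove Dicer1. Its product is the enzyme that makes mature microRNAs. All cultures stood overnight with ethanol added at a high dilution. They were then given LPS (lipopolysaccharide), the bacterial ligand of TLR4, at a labelled 100 ng/ul for 6 h, or saline as the vehicle. Each of the 4 groups had 3 libraries. Whether the replicates were separate mice is not stated in the labels, and the p-values reflect only the spread among these libraries, and that spread may be technical.

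Members of the IL-6 family bind a receptor of their own that pairs with the shared chain gp130, encoded by Il6st, and act mainly through STAT3. The IL-12 family cytokines are pairs of subunits: Il12b joins Il12a to form IL-12 or Il23a to form IL-23, and Ebi3 joins the product of Il27 to form IL-27 or that of Il12a to form IL-35. IL-10, made by activated macrophages, restrains their production through its receptor and STAT3. Macrophages release most of these proteins only after a microbial signal, and the genes are known targets of NF-kappaB and of other inflammatory transcription factors.

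Promoter sequences are shown for Il6 and Ebi3 because both genes rose with LPS and both carry a match to an NF-kappaB motif. They are the RefSeq windows of 250 bases before to 50 bases after the transcription start on build GRCm38.p6, written 5′ to 3′, with capitals marking motif matches found on either strand. The Il6 window is chr5:30012864-30013163 on the plus strand and the Ebi3 window chr17:55952373-55952672 on the plus strand.
Il6: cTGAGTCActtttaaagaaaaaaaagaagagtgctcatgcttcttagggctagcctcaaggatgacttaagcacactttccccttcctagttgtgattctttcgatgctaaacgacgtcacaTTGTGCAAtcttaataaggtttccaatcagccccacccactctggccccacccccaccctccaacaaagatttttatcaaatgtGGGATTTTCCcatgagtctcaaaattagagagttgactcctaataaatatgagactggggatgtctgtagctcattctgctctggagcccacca
Ebi3: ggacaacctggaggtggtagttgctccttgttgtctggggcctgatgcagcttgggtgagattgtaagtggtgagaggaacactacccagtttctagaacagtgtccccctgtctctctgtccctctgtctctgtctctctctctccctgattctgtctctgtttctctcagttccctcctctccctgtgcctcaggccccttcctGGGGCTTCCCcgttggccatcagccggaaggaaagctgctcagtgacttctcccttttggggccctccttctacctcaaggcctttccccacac

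In the Il6 window the kappaB match lay at -44 to -35 from the start, an AP-1 match (TGANTCA) at -249 to -243 and a C/EBP match (TTGCNNAA, on either strand) at -128 to -121. The Ebi3 window held a kappaB match at -44 to -35. RefSeq promoters were matched for 5 of the 9 genes, Il6, Il12a, Il12b, Ebi3 and Lif. The Lif window held an AP-1 match, and the Il12a and Il12b windows held no match to the 7 motifs searched, which were kappaB, ISRE, GAS (TTCNNNGAA), AP-1, CRE (TGACGTCA), C/EBP and the TATA box (TATAAA). Among 32851 promoters of the same length, 4.51% held the kappaB motif, 7.81% the AP-1 motif and 10.8% the C/EBP motif.

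Because Dicer makes microRNAs, the 3′ untranslated regions were searched for the 7-base complement of bases 2 to 8 (the seed) of 9 macrophage microRNA families. Il12a held a match to let-7, and Il6 and Il23a each held a match to miR-223, a myeloid microRNA. The RefSeq mature sequences are shown with the seed in capitals, and each target site with the matching bases in capitals. The sites are from GRCm38, at chr3:68698189-68698210 on the plus strand (Il12a), chr5:30019634-30019655 on the plus strand (Il6) and chr10:128296298-128296319 on the minus strand (Il23a).
let-7a-5p: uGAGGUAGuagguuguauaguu
Il12a site: caaaggtggcacagCTACCTCa
miR-223-3p: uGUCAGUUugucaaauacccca
Il6 site: tgttctctacgaagAACTGACa
Il23a site: ggactaccaatacgAACTGACa

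Of 21653 untranslated regions, 7.82% held the let-7 match and 7.32% the miR-223 match. Il12a also held a match to miR-21, Il23a to miR-125 and Osm to miR-17. Lif, with the longest region, had 5 matches to 4 families, miR-29, miR-125, miR-365 and miR-17. Over all regions the shares were 6.33% for miR-21, 11.7% for miR-125, 10.64% for miR-17, 11.68% for miR-29 and 6.82% for miR-365. Il12b, Il27, Ebi3 and Il10 held no match to the 9 families. A match is a description of the letters and not a measured binding site.

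The labels were checked first. Dicer1 was at 42.6 to 52.5 CPM (counts scaled to library size with TMM, the trimmed mean method of edgeR) in the 6 control libraries and at 14.3 to 20.1 CPM in the 6 Dicer KO libraries. Dicer KO thus kept Dicer1 reads, and these libraries measure neither Dicer protein nor mature microRNAs. Lyz2, the locus that carries Cre, was at 3891 to 6041 CPM in the controls and at 12.7 to 20.6 CPM in Dicer KO, although the titles give both genotypes LysMcre/+. The labels also call the controls wildtype and the names of their files mark LysM as wildtype. Genotype differences are therefore those between the libraries as labelled, and an effect of Cre in the Lyz2 locus and one of Dicer loss cannot be told apart. Reads assigned to genes numbered 16172600 to 18886948 per library. In the vehicle groups, control replicate 3 and Dicer KO replicate 2 differed more from their group than the remaining pairs did. All 8 macrophage markers had reads in every group, with a summed level of 6887 to 9465 CPM per library. In such bulk samples, fewer cells of a type and less RNA per cell cannot be told apart.

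**Figure D1:**
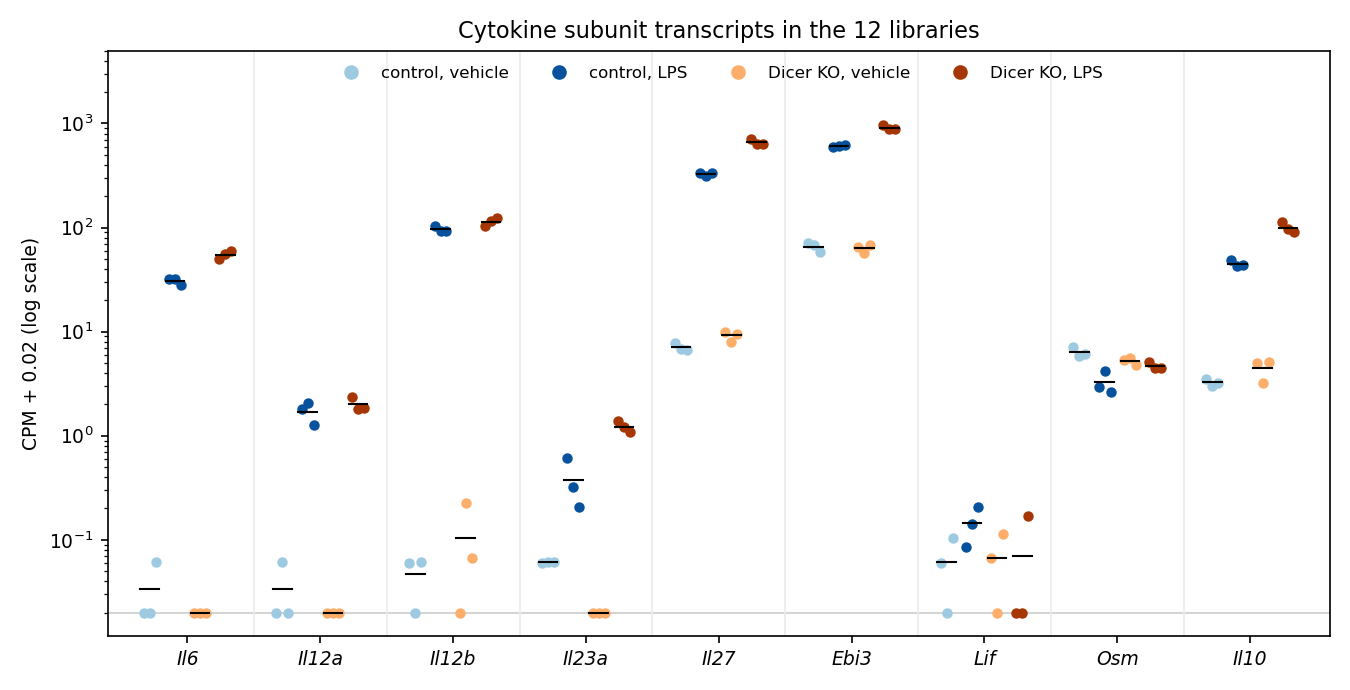
Level of each of the 9 transcripts in the 12 libraries, as CPM plus 0.02 on a log axis; points are libraries, short lines are group means (n = 3), and the grey line marks 0 reads. Of these, 7 genes sit higher with LPS than with vehicle in both genotypes, Osm does not, and Lif stays at 0 to 3 reads.

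LPS raised 7 of the 8 tested cytokine genes in both genotypes. In controls the 8th, Osm, fell, and in Dicer KO it did not pass the test. Of all 13837 genes tested, 38.0% were called higher and 41.1% lower by LPS in controls, and 37.4% and 42.7% in Dicer KO, at an adjusted p under 0.05. The edgeR quasi-likelihood test with Benjamini-Hochberg adjustment over all genes was used throughout. The median fold change of the 8 genes was 4.66 on the log2 scale in controls against -0.06 for all genes, and 6.83 against -0.10 in Dicer KO. Those medians include 4 genes with almost no vehicle reads, Il6, Il12a, Il12b and Il23a, whose fitted folds are not bounds. These 4 passed the filter on low counts only through LPS libraries. Their higher calls with LPS were thus nearly fixed in advance and cannot be set against the shares over all genes. Il27, Ebi3 and Il10 had reads in every vehicle library.

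Il6 (5:30013114-30019981, plus strand, GRCm38), the inflammatory cytokine of the acute phase response, had 0, 0 and 1 reads in the control vehicle libraries and 0 in each Dicer KO vehicle library. With LPS it was at 31.9, 32.0 and 28.1 CPM in control replicates 1 to 3 and at 49.4, 55.5 and 59.3 CPM in Dicer KO. The LPS libraries were thus far above the vehicle libraries, and the genotypes did not overlap under LPS. Over the group, 1468 reads against 1 gave a ratio of 2243 in controls, with an exact 95% counting interval of 402 to 88643. In Dicer KO, 2184 reads against 0 made Il6 at least 1137-fold higher with LPS, taking a floor of 3 reads over the group. These intervals and floors cover counting error only.

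Il12b (11:44400063-44414033, plus strand), the p40 subunit shared by IL-12 and IL-23, had 1, 0 and 1 reads in control vehicle and 0, 4 and 1 in Dicer KO vehicle. With LPS it reached 103, 92.0 and 92.8 CPM in controls and 103, 116 and 123 CPM in Dicer KO. The LPS ranges of the genotypes met at their ends, since control replicate 1 and Dicer KO replicate 1 were alike. The ratio of LPS to vehicle reads was 3509 in controls (exact counting interval 971 to 28986) and 1421 in Dicer KO (608 to 4378).

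Il12a (3:68690644-68698547, plus strand), the p35 subunit of IL-12 and IL-35, remained a low transcript. It had 1 read over the control vehicle libraries and 0 over the Dicer KO vehicle libraries. With LPS it was at 1.77, 2.06 and 1.24 CPM in controls and at 2.33, 1.80 and 1.81 CPM in Dicer KO, and the genotypes overlapped. The LPS to vehicle ratio was 124 in controls (exact counting interval 21.6 to 4947), and the gene was at least 41.1-fold higher in Dicer KO. Il23a (10:128296139-128298752, minus strand), the p19 subunit of IL-23, was lower still. It had 1 read in each control vehicle library and 9, 5 and 3 reads in control LPS, against 0 in each Dicer KO vehicle library and 18, 16 and 14 in Dicer KO LPS. Its LPS to vehicle ratio was 8.66 in controls (exact counting interval 2.504 to 46.1) and at least 25.0-fold in Dicer KO.

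Il27 (7:126589010-126594941, minus strand), the p28 subunit of IL-27, was the member with the steepest rise among those with vehicle reads in every library. It was at 7.73, 6.84 and 6.64 CPM in control vehicle and at 336, 310 and 337 CPM in control LPS. In Dicer KO the values were 10.01, 7.98 and 9.52 CPM with vehicle and 717, 631 and 630 CPM with LPS. Every Dicer KO library was above every control library of its treatment. LPS raised Il27 46.2-fold in controls, by 5.53 ± 0.09 (SE) on the log2 scale (edgeR adjusted p = 8.20e-20), and 71.7-fold in Dicer KO, by 6.16 ± 0.09 (edgeR adjusted p = 1.56e-20).

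Ebi3 (17:55952640-55957022, plus strand), the partner of p28 in IL-27, had the highest vehicle level per length of the 9. It was at 70.4, 68.4 and 58.5 CPM in control vehicle and 65.7, 56.9 and 67.3 CPM in Dicer KO vehicle. With LPS it was at 591, 614 and 627 CPM in controls and at 962, 879 and 876 CPM in Dicer KO. The genotypes overlapped with vehicle and did not with LPS. LPS raised Ebi3 9.29-fold in controls (log2 3.21 ± 0.08, edgeR adjusted p = 2.05e-17) and 14.3-fold in Dicer KO (log2 3.84 ± 0.08, edgeR adjusted p = 2.02e-18).

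Exons of Ebi3 and Il27 overlap genes on the opposite strand, Gm16712 over 23.4% of the Ebi3 exon bases and Apobr over 10.1% of those of Il27. The strand setting of the counting is not given in the sources used here. Gm16712 was at 36.5 ± 3.72 CPM (SD, n = 3) in control vehicle, 336 ± 9.10 in control LPS, 33.1 ± 2.97 in Dicer KO vehicle and 510 ± 19.4 in Dicer KO LPS, moving as Ebi3 did, and reads of the pair cannot be told apart without strand. Apobr stayed between 210 and 253 CPM on average in the 4 groups.

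Il10 (1:131019845-131024974, plus strand), the main anti-inflammatory cytokine of macrophages, was at 3.52, 2.97 and 3.22 CPM in control vehicle and at 4.93, 3.19 and 5.13 CPM in Dicer KO vehicle. With LPS it was at 49.1, 42.3 and 43.8 CPM in controls and at 112, 97.7 and 89.7 CPM in Dicer KO. The Dicer KO LPS libraries were all above the control LPS libraries, while Dicer KO vehicle replicate 2 lay within the control vehicle range. The LPS rise was 13.9-fold in controls (log2 3.80 ± 0.13, edgeR adjusted p = 1.66e-13) and 22.4-fold in Dicer KO (log2 4.48 ± 0.13, edgeR adjusted p = 7.72e-15).

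Osm (11:4236420-4241026, plus strand), an IL-6 family cytokine of myeloid cells, went the other way. It was at 7.12, 5.83 and 6.02 CPM in control vehicle and at 2.95, 4.18 and 2.60 CPM in control LPS, with no overlap, a 1.94-fold fall (log2 -0.96 ± 0.16, edgeR adjusted p = 2.10e-05). In Dicer KO it was at 5.35, 5.56 and 4.81 CPM with vehicle and 5.11, 4.43 and 4.44 CPM with LPS, which overlapped (log2 -0.17 ± 0.16, edgeR adjusted p = 0.344). With library totals in place of TMM the Dicer KO difference was -0.91 on the log2 scale and passed the test (edgeR adjusted p = 3.99e-05). Lif (11:4257557-4272514, plus strand), a neighbour 16530 bases from Osm that keeps stem cells undifferentiated, had 1, 0 and 2 reads in control vehicle, 1, 2 and 3 in control LPS, 1, 0 and 2 in Dicer KO vehicle and 0, 0 and 2 in Dicer KO LPS.

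With vehicle, 2 of the 8 tested genes were called higher in Dicer KO and none lower, where 25.0% of all genes were called higher and 21.2% lower. Il27 was 1.30-fold higher (log2 0.38 ± 0.10, edgeR adjusted p = 0.00557). Il10 was 1.37-fold higher (log2 0.46 ± 0.18, edgeR adjusted p = 0.0473), with overlapping libraries. That call was lost without any 1 control vehicle library, Dicer KO vehicle replicate 1 or 3, control LPS replicate 2 or 3, or Dicer KO LPS replicate 2, and with library totals, a stricter filter or only the groups compared (edgeR adjusted p = 0.0541 to 0.183). Ebi3 differed by -0.06 ± 0.08 on the log2 scale (edgeR adjusted p = 0.577). The 3 Dicer KO libraries all had less Osm than the control libraries, without passing the test (log2 -0.27 ± 0.14, edgeR adjusted p = 0.124) except with library totals (log2 -0.40, edgeR adjusted p = 0.0292). The other 4 had 0 to 5 reads over each vehicle group and could not be compared at this depth.

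With LPS, 7 of the 8 tested genes were higher in Dicer KO and none lower, where 28.8% of all genes were called higher and 27.0% lower. The median of the 8 was 0.70 on the log2 scale against -0.03 for all genes. Among the well-covered members Il10 had the largest difference, 2.22-fold (log2 1.15 ± 0.10, edgeR adjusted p = 6.06e-08), followed by Il27 at 2.01-fold (log2 1.01 ± 0.07, edgeR adjusted p = 4.54e-10), Il6 at 1.79-fold (log2 0.84 ± 0.08, edgeR adjusted p = 3.43e-07) and Ebi3 at 1.48-fold (log2 0.57 ± 0.07, edgeR adjusted p = 1.67e-06). For these 4 every Dicer KO library was above every control library, a separation that was not counted over all genes. Il23a was 3.34-fold higher (log2 1.74 ± 0.38, edgeR adjusted p = 0.000903), from 48 reads against 17. It had 3 to 9 reads per control LPS library and 14 to 18 per Dicer KO LPS library. Only the Dicer KO LPS group carried it past the filter on low counts. A higher call was thus favoured in advance, and Il23a cannot be set against the shares over all genes.

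The smaller differences were less firm. Osm was 1.43-fold higher (log2 0.52 ± 0.18, edgeR adjusted p = 0.0189), with no overlap between libraries, and lost the call without control LPS replicate 1 or 3 or Dicer KO LPS replicate 1 (edgeR adjusted p = 0.0663, 0.101 and 0.0744). Il12b was 1.19-fold higher (log2 0.25 ± 0.08, edgeR adjusted p = 0.0139) and lost the call without control LPS replicate 2 or 3 or Dicer KO LPS replicate 2 or 3 (edgeR adjusted p = 0.0784, 0.0638, 0.0547 and 0.0876). Under library totals, which move the median of all genes from -0.03 to -0.38, Il12b turned to -0.11 (edgeR adjusted p = 0.239) and Osm was at 0.17 (edgeR adjusted p = 0.429), while the other 5 genes kept their calls. Il12a did not differ beyond its error (log2 0.23 ± 0.26, edgeR adjusted p = 0.486). Of the 3 comparators outside these families, 1 was called. Il1a, encoding IL-1 alpha, was at 388 CPM in Dicer KO and 80.1 in controls (log2 2.28 ± 0.11, edgeR adjusted p = 9.93e-10), a larger difference than that of any member, with 11.2% of its exon bases overlapped by Gm14023 on the opposite strand. Tnf was at 1512 CPM in Dicer KO and 1462 in controls (log2 0.05 ± 0.08, edgeR adjusted p = 0.644), and Il1b differed by 0.04 ± 0.26 on the log2 scale (edgeR adjusted p = 0.905).

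**Figure D2:**
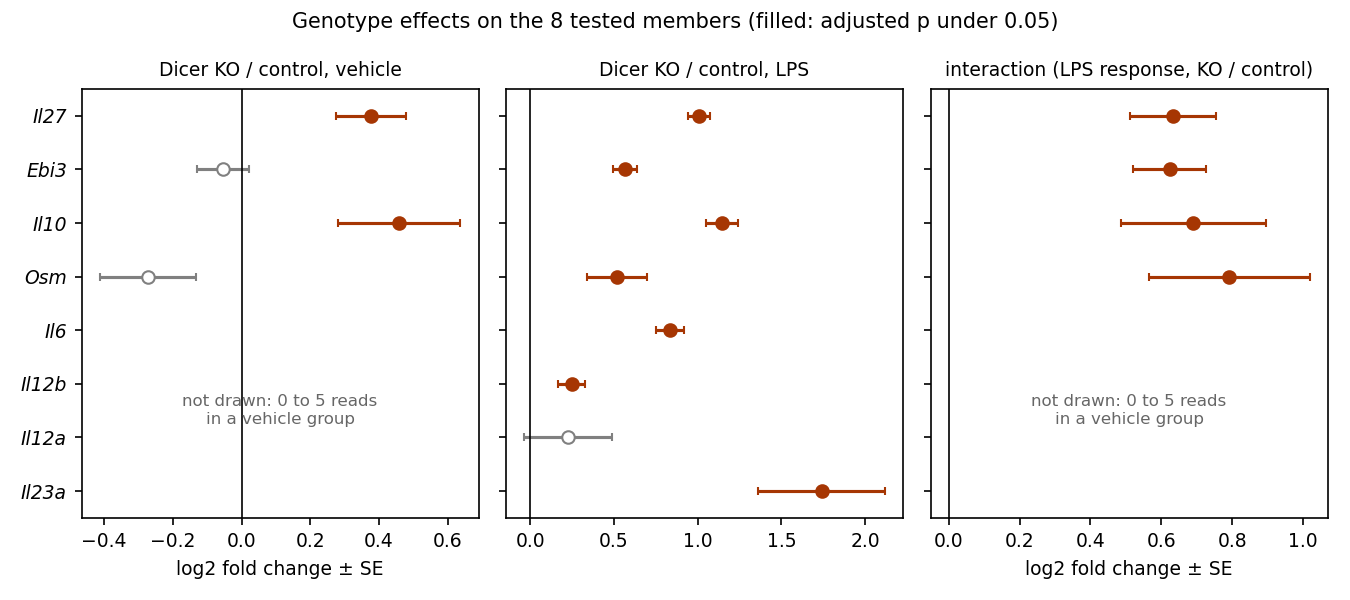
Fitted log2 fold change with its SE for the 8 tested genes: Dicer KO against control with vehicle (left), with LPS (middle), and the difference of the LPS responses (right); filled points have an adjusted p under 0.05. Il6, Il12b, Il12a and Il23a are drawn only in the LPS panel because they had 0 to 5 reads over a vehicle group, and under LPS all but Il12a are filled and above 0.

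The LPS response itself differed between genotypes for 5 of the 8 genes, all towards Dicer KO, where 14.9% of all genes had a higher and 18.8% a lower response in Dicer KO. The difference was 0.63 ± 0.12 on the log2 scale for Il27 (edgeR adjusted p = 0.000580), 0.62 ± 0.10 for Ebi3 (edgeR adjusted p = 0.000145), 0.69 ± 0.20 for Il10 (edgeR adjusted p = 0.0166) and 0.79 ± 0.23 for Osm (edgeR adjusted p = 0.0116). For Osm this was a fall in controls that was smaller in Dicer KO. For Il10 the call was lost without control vehicle replicate 1 (log2 0.62, edgeR adjusted p = 0.0610). With library totals the Osm call (log2 0.56, edgeR adjusted p = 0.0575) and the Il10 call (log2 0.46, edgeR adjusted p = 0.0673) were lost. For Il23a the fitted difference (edgeR adjusted p = 0.0310) rested on 3 against 0 vehicle reads and was lost without any single vehicle library (edgeR adjusted p = 0.0551 to 0.0619). Il23a also passed the filter only through Dicer KO LPS, so its call cannot be set against the shares over all genes. Il6, Il12a and Il12b were not called (edgeR adjusted p = 0.305, 0.392 and 0.470), with 0 to 5 vehicle reads per group.

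Levels of different genes were set side by side per kilobase of the longest transcript, as RPKM (CPM divided by transcript length). With LPS, controls had the order Ebi3 (529 ± 16.1, SD, n = 3), Il27 (321 ± 15.1), Il12b (49.4 ± 3.24), Il10 (34.4 ± 2.75), Il6 (13.1 ± 0.946), Osm (1.43 ± 0.364), Il12a (1.30 ± 0.318), Il23a (0.209 ± 0.121) and Lif (0.0309 ± 0.0150). Only Osm and Il12a overlapped as neighbours. In Dicer KO with LPS, Ebi3 was at 785 ± 42.4 RPKM, Il27 at 646 ± 49.1, Il10 at 76.2 ± 8.61, Il12b at 58.6 ± 5.11 and Il6 at 23.4 ± 2.12, followed by Osm at 2.05 ± 0.171, Il12a at 1.52 ± 0.232, Il23a at 0.698 ± 0.0864 and Lif at 0.0125 ± 0.0216, with no neighbours overlapping. Il10 and Il12b had changed places. With vehicle, Ebi3 led in both genotypes (57.0 ± 5.50 in controls and 54.8 ± 4.84 in Dicer KO), followed by Il27 (6.93 ± 0.566 and 8.98 ± 1.04), and Osm and Il10 overlapped at 2.31 to 3.37.

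The ratios between members were set side by side within each library. The ratio of Ebi3 to Il27 per kilobase was 8.23 ± 0.541 (SD, n = 3) in control vehicle. It was 6.12 ± 0.275 for Dicer KO with vehicle, and it stood at 1.65 ± 0.0992 in control LPS and 1.22 ± 0.0257 in Dicer KO LPS. The LPS libraries ran from 1.56 to 1.75 in controls and from 1.19 to 1.23 in Dicer KO, so the transcripts of the 2 IL-27 subunits were closest to equal there. The ratio of Il12b to Il10 was 1.44 ± 0.0268 in control LPS and 0.781 ± 0.151 in Dicer KO LPS, with Dicer KO libraries at 0.621 to 0.921. The ratio of Il12b to Il12a was 39.8 ± 10.1 in control LPS and 39.4 ± 8.54 in Dicer KO LPS, which overlapped. The ratio of Il12b to Il23a was 289 ± 145 in control LPS and 85.5 ± 17.7 in Dicer KO LPS, without overlap, from 3 to 18 Il23a reads per library. These ratios were described and not tested.

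**Figure D3:**
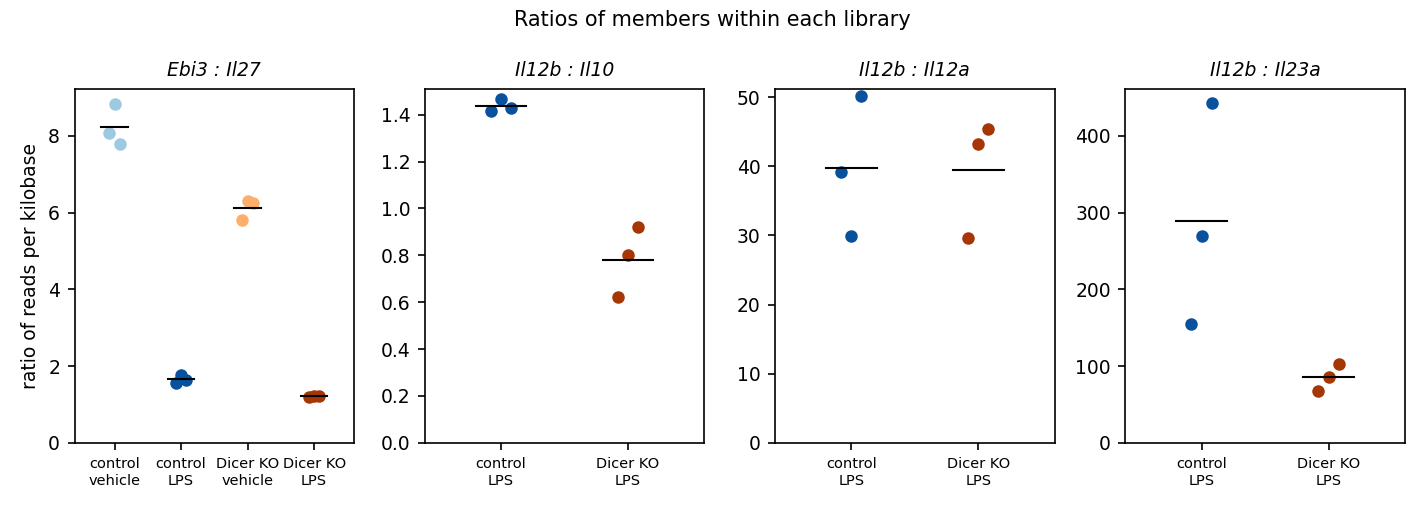
Ratios of transcripts per kilobase within each library, on linear axes from 0; points are libraries and lines are group means (n = 3). Ebi3 exceeds Il27 by 7.80 to 8.84 in control vehicle and by 1.19 to 1.23 in Dicer KO LPS, and Il12b to Il10 lies above 1 in control LPS and below 1 in Dicer KO LPS.

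Of 12 receptor chains for these cytokines, 11 were tested. LPS raised 4 and lowered 6 in controls and raised 5 and lowered 5 in Dicer KO. Of all genes, LPS raised 38.0% and lowered 41.1% in controls, and raised 37.4% and lowered 42.7% in Dicer KO. Between genotypes, 4 were higher and 2 lower in Dicer KO with vehicle, 6 higher and 2 lower with LPS, and the LPS response differed upwards for 2 and downwards for 2. Over all genes the shares called higher and lower were 25.0% and 21.2% with vehicle, 28.8% and 27.0% with LPS, and 14.9% and 18.8% for the difference of responses. The IL-10 receptor was among those that differed. Il10ra, its ligand-binding chain, was at 279, 269 and 270 CPM in control LPS and 477, 412 and 409 CPM in Dicer KO LPS (log2 0.67 ± 0.10, edgeR adjusted p = 0.000104), and its LPS response was larger in Dicer KO by 0.92 ± 0.15 (edgeR adjusted p = 0.000349). Il10rb, the accessory chain, was at 163 and 252 CPM on average (log2 0.62 ± 0.06, edgeR adjusted p = 3.42e-08). Il10rb shares 14.9% of its exon bases with Gm21970 on the same strand, which had 0 reads.

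Chains of the IL-6 family moved in opposite directions. Il6st, encoding gp130, was at 109, 108 and 117 CPM in control LPS and 94.7, 73.0 and 78.3 in Dicer KO LPS (log2 -0.44 ± 0.07, edgeR adjusted p = 4.84e-05), although with vehicle it was higher in Dicer KO (log2 0.35 ± 0.07, edgeR adjusted p = 0.000314). Its fall with LPS was larger in Dicer KO (log2 -0.79 ± 0.10, edgeR adjusted p = 9.18e-06). Lifr, the LIF receptor, was lower in Dicer KO LPS, at 1.68 against 3.63 CPM (log2 -1.11 ± 0.22, edgeR adjusted p = 0.000255). With vehicle Lifr was already lower in Dicer KO, at 10.5 against 21.4 CPM, and its LPS response was not called different. Osmr, the oncostatin M receptor, had 0 reads in all 6 vehicle libraries and was at 0.262, 1.39 and 1.18 CPM in control LPS and 5.03, 4.73 and 5.42 CPM in Dicer KO LPS (log2 2.39 ± 0.33, edgeR adjusted p = 5.16e-05). With 4 to 23 reads per control LPS library, Osmr passed the filter on low counts only with the help of the Dicer KO LPS libraries. Il6ra, the IL-6 receptor, differed by -0.13 ± 0.05 (edgeR adjusted p = 0.0539).

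The IL-12 and IL-23 receptor chains were higher in Dicer KO LPS. Il12rb1, shared by both receptors, was at 13.0 CPM in controls and 33.7 in Dicer KO (log2 1.38 ± 0.25, edgeR adjusted p = 0.000968). Il23r, the IL-23-specific chain, was at 0.924 and 4.71 CPM (log2 2.35 ± 0.25, edgeR adjusted p = 4.82e-07). Il12rb2, the IL-12-specific chain, was at 8.15 and 18.8 CPM (log2 1.21 ± 0.09, edgeR adjusted p = 3.38e-09), but 40.0% of its exon bases are overlapped by Serbp1 on the opposite strand. Il12rb1 and Il12rb2 were already called higher in Dicer KO with vehicle. There Il12rb1 was at 5.21 against 2.22 CPM, with overlapping libraries, and Il12rb2 at 40.1 against 19.8 CPM. Their LPS responses were not called different between genotypes. Il27ra, the IL-27 receptor, was at 0.733 CPM in control LPS and 0.652 in Dicer KO LPS and was not called (edgeR adjusted p = 0.730). With vehicle it was lower in Dicer KO, at 0.813 against 1.76 CPM (log2 -1.10 ± 0.24, edgeR adjusted p = 0.000981).

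**Figure D4:**
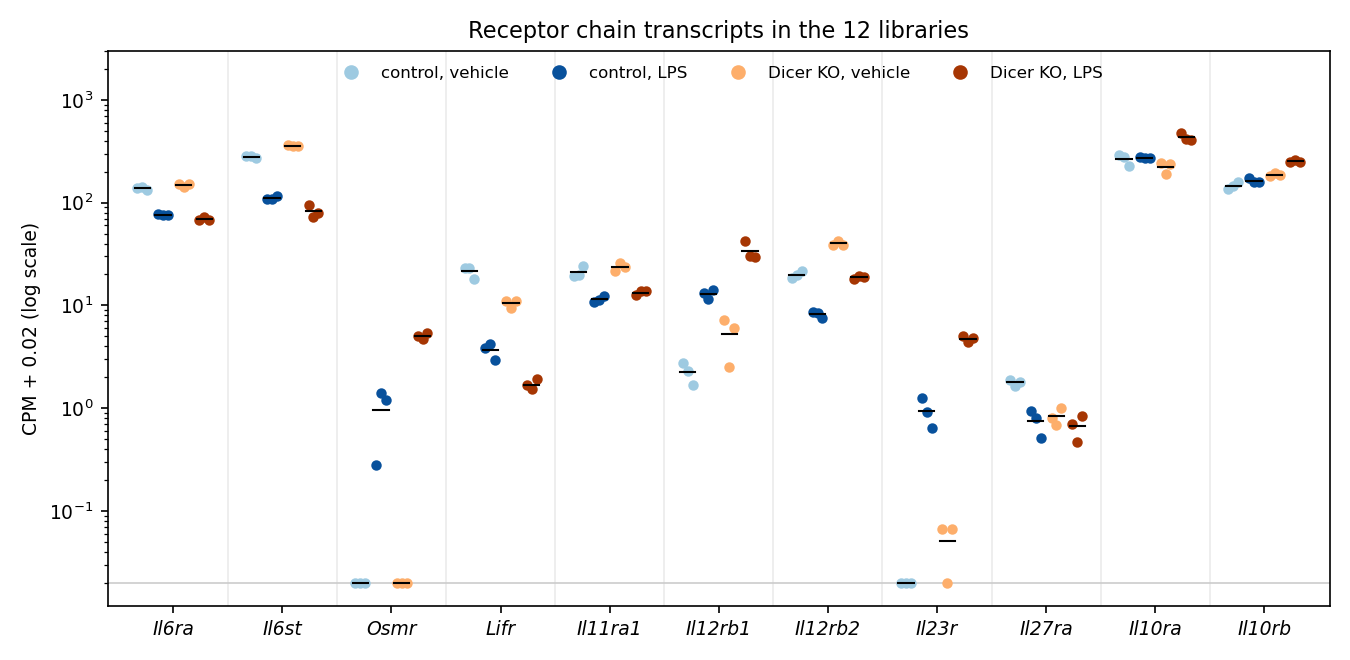
Level of the 11 tested receptor chains in the 12 libraries, as CPM plus 0.02 on a log axis; points are libraries, lines are group means (n = 3), and the grey line marks 0 reads. The Dicer KO LPS libraries lie above control LPS for Osmr, Il12rb1, Il12rb2, Il23r, Il10ra and Il10rb and below them for Il6st and Lifr. Such separation was not counted over all genes.

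Of the 14 genes of JAK-STAT signalling, 13 were higher and 1 lower with LPS in each genotype. Over all genes LPS raised 38.0% and lowered 41.1% in controls, and raised 37.4% and lowered 42.7% in Dicer KO. In Dicer KO against control, 7 were higher and 3 lower with vehicle, where 25.0% of all genes were higher and 21.2% lower. With LPS 11 were higher and 2 lower (median log2 0.45 against -0.03 for all genes, of which 28.8% were higher and 27.0% lower). Under LPS the members with the largest differences were Cish (10.9 against 3.96 CPM, log2 1.45 ± 0.18, edgeR adjusted p = 1.67e-06) and Socs1 (130 against 59.9 CPM, log2 1.12 ± 0.08, edgeR adjusted p = 3.57e-09), both feedback inhibitors, and Pias3, an inhibitor of STAT3, which was lower (log2 -0.82 ± 0.12, edgeR adjusted p = 1.72e-05). Socs3, the feedback inhibitor of gp130 signalling, was at 2155 against 1535 CPM (log2 0.49 ± 0.06, edgeR adjusted p = 1.14e-06). Opposite-strand genes overlap 11.5% of the Cish exon bases. Socs1 was already higher in Dicer KO with vehicle, at 3.96 against 0.506 CPM (log2 2.96 ± 0.24, edgeR adjusted p = 3.35e-08), and its LPS response was smaller there (log2 -1.84 ± 0.27, edgeR adjusted p = 5.28e-05).

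Of 12 genes known to respond to IL-10 and STAT3, 10 were higher and 1 lower in Dicer KO with LPS (median log2 0.54), against 3 higher and 3 lower with vehicle, and the LPS response was larger for 10 and smaller for 1. The shares over all genes were 28.8% higher and 27.0% lower with LPS, 25.0% and 21.2% with vehicle, and 14.9% and 18.8% for the response. Il1rn, the IL-1 receptor antagonist, was at 6963 CPM against 2440 (log2 1.51 ± 0.09, edgeR adjusted p = 3.43e-10) and Etv3, a repressor, at 562 against 251 (log2 1.17 ± 0.06, edgeR adjusted p = 2.15e-11). Fcgr1, an Fc receptor, was higher by 0.79 ± 0.09 (edgeR adjusted p = 1.64e-06), yet its LPS response was the one that was smaller (log2 -0.95 ± 0.13, edgeR adjusted p = 3.55e-05). Il10ra and Socs3 belong to this list too, so it overlaps with the others.

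Of 25 transcription factors and cofactors that act on the cytokine genes, 17 were higher and 4 lower with LPS in controls. Of all genes, LPS raised 38.0% and lowered 41.1% in controls. In Dicer KO with LPS 16 were higher and 4 lower than in controls, and with vehicle 5 were higher and 8 lower. Over all genes 28.8% and 27.0% were so called with LPS and 25.0% and 21.2% with vehicle. Irf1, an activator of Il12a and Il27, was at 802 against 336 CPM under LPS (log2 1.26 ± 0.08, edgeR adjusted p = 6.56e-10). With vehicle Irf1 was already higher in Dicer KO, at 151 against 72.2 CPM, and its LPS response was not called different. Irf5, an activator of Il6 and Il12b, was at 403 against 206 CPM (log2 0.97 ± 0.05, edgeR adjusted p = 2.30e-11), and its LPS response was larger in Dicer KO by 0.95 ± 0.07 (edgeR adjusted p = 2.65e-08), though Tnpo3 overlaps 14.2% of its exon bases on the opposite strand.

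Of 13 genes for regulators of cytokine mRNA stability, 12 were tested, and with LPS 6 were higher and 5 lower in Dicer KO, beside 28.8% and 27.0% of all genes. Arid5a, which stabilises Il6 mRNA, was at 184 against 60.4 CPM (log2 1.61 ± 0.16, edgeR adjusted p = 9.86e-06), and Rc3h2, which promotes decay, at 82.6 against 50.2 (log2 0.72 ± 0.06, edgeR adjusted p = 3.76e-09). Zfp36l1, another decay factor, was lower at 8.85 against 20.2 CPM (log2 -1.19 ± 0.25, edgeR adjusted p = 0.00259), with 55.9% of its exon bases overlapped by Gm26669 on the opposite strand. With vehicle Zfp36l1 was already lower in Dicer KO, at 131 against 226 CPM, and its LPS response was not called different. The ATTTA motif of unstable mRNAs was counted after the values were seen. It occurred 17.5 times per kilobase in the 3′ untranslated region of Il27, 14.1 in Il6 and 12.2 in Il12a, against 4.08 in Ebi3 and 2.20 in Lif. Of the 9 genes, 7 had 5 or more per kilobase, as did 7.98% of 19369 regions of at least 100 bases (median 1.33).

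Of 10 related ligands, 2 passed the filter and were tested. Clcf1, a gp130 ligand, was at 8.25 CPM in Dicer KO LPS against 3.60 in control LPS (log2 1.19 ± 0.17, edgeR adjusted p = 1.22e-05), and Il19, an IL-10 relative, at 14.9 against 9.02 (log2 0.72 ± 0.14, edgeR adjusted p = 0.000197). Among the members' closest patterns over the 12 libraries and 9768 candidate genes, measured as the root mean square difference of centred log2 CPM, the nearest genes to Il10 were Stx11 (0.144), Icam1 (0.202) and Sema4c (0.246). The nearest to Il27 were Snn (0.220), Tma16 (0.261) and Nupr1 (0.288). Those to Ebi3 were C1ra (0.116), Tle3 (0.125) and Srgn (0.143), and those to Osm were Tmbim1 (0.156), Pisd-ps2 (0.167) and Tnfaip8l2 (0.172). Il6 was nearest to Ptges (0.225), Ptx3 (0.261) and Serpinb2 (0.317), of which only Ptx3 was kept at a prior count of 0.5. For Il12a, Il12b and Il23a the nearest genes changed entirely with the prior count, so they are not named.

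Markers of other cell types were read beside these results. The 8 dendritic cell markers, a cell type that makes IL-12 and IL-23, all had reads in every group, with a summed level of 1.98 to 2.17 CPM per library in control vehicle, 7.39 to 9.18 in control LPS, 2.99 to 5.17 in Dicer KO vehicle and 17.6 to 18.9 in Dicer KO LPS. Most of the last came from Ccr7 (9.07 ± 0.0537 CPM, SD, n = 3, against 5.16 ± 0.746 in control LPS) and Xcr1 (7.14 ± 0.951 against 1.50 ± 0.278), while Flt3 and Zbtb46 stayed at 0.276 ± 0.0437 and 0.226 ± 0.131 CPM in Dicer KO LPS against 0.364 ± 0.333 and 0.401 ± 0.176 in control LPS. The part of this list in the cytokine differences was not tested. The 8 neutrophil markers summed to 71.0 to 137 CPM, with Ly6g at 0 in Dicer KO LPS, and were at 115 to 121 CPM in control LPS against 121 to 137 for Dicer KO LPS. The 9 lymphocyte markers summed to 3.41 to 4.52 CPM in control LPS. In Dicer KO LPS the sum was 3.62 to 4.51 CPM, with Ncr1 at 0 in both. Nearly all of it was Cd4, at 3.79 and 3.76 CPM on average. The 8 stromal markers summed to 1.67 to 3.07 CPM with vehicle, 32.4 to 33.4 in control LPS and, for Dicer KO LPS, 48.7 to 52.2. Of these, 3 passed the filter, and Pdgfrb, Cdh5 and Pecam1 were higher with LPS in both genotypes and higher in Dicer KO LPS than in control LPS. Over all genes LPS raised 38.0% in controls and 37.4% in Dicer KO, and 28.8% were higher in Dicer KO LPS. Pdgfrb was at 34.5 against 23.2 CPM (log2 0.57 ± 0.11, edgeR adjusted p = 0.000291), while Col1a1 was at 0.125 against 0.103 CPM.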

How the data were processed

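Messenger RNA was sequenced from 12 macrophage libraries in 4 groups of 3, with a stranded kit per the labels' protocols. The deposited files hold the authors' whole-number read counts per Ensembl gene, 1 library each. Per the submitters' processing notes the tools included STAR 2.5 and DESeq2, and the builds were mm10 and GRCm38.p5. Which program counted the reads, and with which strand setting and annotation, is not given in the sources used here. Of the reads, 41.7 to 43.3% were assigned to genes, and rows that name no gene, including 45.8 to 46.8% of reads on no feature, were left out.

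Symbols and GRCm38 coordinates came from GENCODE mouse M21, which matched 45229 of 46078 identifiers. The unmatched ones held 0.141% of the counts. Counts were fitted with edgeR 4.0.16 in R 4.3.3 (filterByExpr, 13837 genes, TMM, robust quasi-likelihood fit to all 12 libraries), two-sided, with Benjamini-Hochberg adjustment over all genes per comparison and a call at an adjusted p under 0.05. The common biological coefficient of variation was 6.3%. TMM centres fold changes on the typical gene, so they do not measure total RNA per cell. Standard errors were taken as the log2 fold change divided by the square root of the F statistic. The fit was tested on simulated data. RPKM used the longest transcript. Alternatives used DESeq2 1.42.0, other scalings, filters and sample choices.

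All 9 members are named, with receptor chains, Tnf, Il1b, Dicer1 and Lyz2. From the other lists the text names up to 3 called genes per comparison with the largest change and a mean of at least 5 CPM, and each member's 3 nearest genes. The members and lists were chosen with earlier results of these data known. The level of 1 lymphocyte marker is not reported here.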

Additional observations from a re-analysis of the deposited data

Results flagged for a closer look

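The LPS response differed between Dicer KO and control cells for 5 of the 8 tested cytokine genes, by the test of the difference itself, where 14.9% of all genes had a larger and 18.8% a smaller response in Dicer KO. On the log2 scale, the response in Dicer KO exceeded that in controls by 0.63 for Il27, 0.62 for Ebi3, 0.69 for Il10 and 0.79 for Osm. For Il23a the fitted difference was 4.57, but it rested on 3 vehicle reads in controls against 0 in Dicer KO, so its size depends on the prior count. All 5 differences lay in the direction of a higher LPS level, or a smaller fall, in Dicer KO. With library totals the Osm and Il10 calls were lost, which left 3 members, and the Il23a call was lost without any single vehicle library. Il23a also passed the filter on low counts only through Dicer KO LPS.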

How the results depend on the processing

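Of the single-gene results under all alternatives, 744 kept their direction and their side of the threshold, 29 lost their call, 2 gained one (Osm with library totals) and 1 reversed. DESeq2 gave no adjusted p for the difference of Il23a responses. The reversal was Il12b in Dicer KO against control under LPS, at -0.11 on the log2 scale with library totals. With library totals 3 members had a differing LPS response. In vehicle 1 member was called under the stricter filter and under the fit to only the groups compared. Leaving out 1 library at a time gave 5 to 7 members called in LPS, 1 to 2 in vehicle, 3 to 5 for the difference of responses, 8 for LPS in controls and 7 for LPS in Dicer KO. The other alternatives gave 6 to 8 members called for LPS in controls and 5 to 8 for LPS in Dicer KO. Without the 2 libraries that stood apart, 4 responses differed. With the replicate number as a block, no member's call changed, and Il6 in LPS was 0.84 (edgeR adjusted p = 9.03e-07). Same-numbered samples deviated together with a correlation of -0.232 to 0.182, so the numbers were not taken as a pairing. Depth limits Il6, Il12a, Il12b and Il23a in vehicle, and Lif throughout.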
